A study of Mus musculus with 2 samples.

Results

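The genes described here encode the tumour suppressor p53, its regulators and targets, the BCL2 family, and caspases with their direct partners. The list of 36 genes was given by name, without a rule on measured values, but it was drawn up with earlier results of these data known. Each gene was measured by its brightest probe set among those annotated to that gene alone. Probe sets for 34 of the 36 genes were used, out of 12393 genes on the arrays. Trp53, the p53 gene itself, and Bax were not analysed here.

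RNA was compared between 2 clonal lines derived from E14tg2a mouse embryonic stem cells. The shDAB2 line is clone 4 of cells that stably carry a plasmid for a short hairpin RNA against Dab2 (shDAB2-285), and the vector line is clone 9 of cells that carry the control plasmid. Both lines grew with serum (10%) and leukaemia inhibitory factor (1000 U/ml), a cytokine that keeps such cells undifferentiated. Each line is 1 clone on 1 Affymetrix mouse 430A array, so every value below is a single measurement without replicates, no test across samples exists, and the hairpin, the clone and the culture cannot be told apart.

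The p53 protein is a transcription factor that is stabilised by DNA damage and other stress and held low by MDM2, a ubiquitin ligase that p53 itself induces. Its targets halt the cell cycle, repair or limit damage, or promote death. In the mitochondrial death pathway, BH3-only proteins neutralise anti-apoptotic BCL2 proteins or activate BAX and BAK, which release cytochrome c, and cytochrome c assembles APAF1 and caspase-9 into the apoptosome. Mouse embryonic stem cells are known to carry abundant p53 protein and to be readily driven into apoptosis.

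Because p53 acts by binding DNA, the promoters of the listed genes were searched for its decamer, the unit of which a full p53 response element holds a pair. Promoters came from RefSeq (GRCm38.p6) and span 250 bases before to 50 bases after an annotated start. Of the 36 genes, 31 had at least 1 such window and 43 windows were searched on both strands. Only exact matches were counted, so a decamer with 1 differing base was missed even where it adjoined a match. Bik, Perp, Pmaip1, Trp53inp1 and Zmat3 had no match in the table. The decamer occurred in 10 of the 43 windows (23.3%), against 8.4% of 32851 windows of all genes. Windows of 1 gene can overlap, and the 10 include 2 windows of Aen that hold the same site. It was found at Aen, Bax, Ccng1, Cdkn1a, Ei24, Gadd45a, Mdm2, Sesn1 and Trp53. A pair of decamers at most 13 bases apart was present at Cdkn1a alone among the listed genes, and in 24 windows of all genes. The 250 bases before the start are shown for Ei24 and Ccng1, which have the largest positive differences among the decamer-holding genes, and for Mdm2, Cdkn1a and Gadd45a, well-known p53 targets that differed little between the clones. Decamers are in capitals.
Ei24, chr9:36797335-36797584, minus strand: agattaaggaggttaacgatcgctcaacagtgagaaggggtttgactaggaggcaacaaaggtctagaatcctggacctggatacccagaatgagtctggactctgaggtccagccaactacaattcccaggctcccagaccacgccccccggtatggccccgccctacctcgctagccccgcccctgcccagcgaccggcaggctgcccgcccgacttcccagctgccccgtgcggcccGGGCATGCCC
Ccng1, chr11:40755287-40755536, minus strand: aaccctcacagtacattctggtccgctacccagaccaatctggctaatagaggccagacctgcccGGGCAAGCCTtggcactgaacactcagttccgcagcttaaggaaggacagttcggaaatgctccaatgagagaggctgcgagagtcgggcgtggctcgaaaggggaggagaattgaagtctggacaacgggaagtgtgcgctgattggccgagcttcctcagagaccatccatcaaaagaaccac
Mdm2, chr10:117710759-117711008, minus strand: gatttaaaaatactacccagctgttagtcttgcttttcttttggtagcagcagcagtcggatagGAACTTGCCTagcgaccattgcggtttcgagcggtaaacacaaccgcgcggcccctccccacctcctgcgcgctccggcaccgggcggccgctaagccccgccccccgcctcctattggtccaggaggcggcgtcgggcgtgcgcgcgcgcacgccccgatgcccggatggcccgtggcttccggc
Cdkn1a, chr17:29090729-29090978, plus strand: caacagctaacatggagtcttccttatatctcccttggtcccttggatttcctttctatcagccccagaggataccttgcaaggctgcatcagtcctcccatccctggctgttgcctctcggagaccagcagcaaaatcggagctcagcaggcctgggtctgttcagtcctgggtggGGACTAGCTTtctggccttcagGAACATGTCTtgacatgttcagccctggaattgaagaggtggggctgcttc
Gadd45a, chr6:67037408-67037657, minus strand: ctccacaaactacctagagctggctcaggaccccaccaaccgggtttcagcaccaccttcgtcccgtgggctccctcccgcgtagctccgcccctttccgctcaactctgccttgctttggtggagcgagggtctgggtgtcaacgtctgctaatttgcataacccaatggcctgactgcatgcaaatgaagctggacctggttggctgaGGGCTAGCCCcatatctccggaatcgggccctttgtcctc
In Ei24 the decamer GGGCATGCCC ends at the last base before the start, and in Cdkn1a GGACTAGCTT and GAACATGTCT begin 73 and 51 bases before the upstream of 2 annotated starts; the window of the other start holds no decamer. A match describes letters only and is not evidence of binding.

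Expression values are RMA log2 signals, which are background-corrected, normalised and summarised per probe set. A floor was set at 6.62, the median of all values, and genes whose brighter array reached it are called above the floor. These were 32 of the 34 genes and 7269 of all genes. Dab2, the hairpin's target, read 6.33 in the shDAB2 clone against 6.64 in the vector clone (-0.31 on the log2 scale). Its dimmer probe sets, below the floor on both arrays, differed by -0.05 and -0.01. On the brightest probe set the shDAB2 value was also below the floor and the vector value just above it. Low signal therefore limits what these arrays can show for Dab2. The defining stem cell markers were above the floor in 10 of 10 genes, at 8.18 to 12.29 in the shDAB2 clone and 8.29 to 12.37 in the vector clone. Of the markers of other cell types, 1 of 8 primitive endoderm, 4 of 8 trophectoderm, 2 of 8 fibroblast and 2 of 5 neuroectoderm genes were above it. The 4 trophectoderm genes above the floor (Krt8, Krt18, Krt7 and Tfap2c, named after their values were seen) were all lower in the shDAB2 clone, where the summed linear signal of that list was 2683 against 4928. The other genes of that list, Cdx2, Eomes, Elf5 and Gata3, were below the floor on both arrays. The summed linear signals of the stem cell list were 11006 and 10772, those of primitive endoderm 661 and 650, of fibroblasts 1069 and 1329, and of neuroectoderm 590 and 584. Of the fibroblast genes above the floor, Fn1 read 8.93 in the shDAB2 clone against 9.53 in the vector clone, and Dcn 6.62 against 6.55. The part of the marker genes in the differences below was not tested.

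The p53 and apoptosis genes were close to equal in the clones. In the shDAB2 clone 16 of the 32 genes gave the higher signal and 16 the lower one, beside 50.0% and 49.3% of all genes. The median log2 difference was -0.0005, beside 0.0006 over all 7269 genes. The median size of the difference, whatever its sign, was 0.087 on the log2 scale beside 0.11 for all genes. At a limit of 1.2-fold, a log2 difference of 0.26, 4 genes were higher: Ei24, Pmaip1, Ccng1 and Mcl1. None was 1.2-fold lower. The 4 genes are 12.5% of the 32, where 7.97% of all genes were as much higher, and 8.80% of all genes were 1.2-fold lower. At 1.1-fold 6 listed genes were higher and 3 lower, beside 20.4% and 21.2% of all genes; the added ones were Btg2 and Aen, higher, and Bcl2l1, Zmat3 and Bbc3, lower. At 1.5-fold no listed gene was called in either direction, beside 0.578% of all genes higher and 1.62% lower. No p-value can be attached to these counts, and in RNA of whole cultures fewer cells with a transcript and less of it per cell cannot be told apart.

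**Figure D1:**
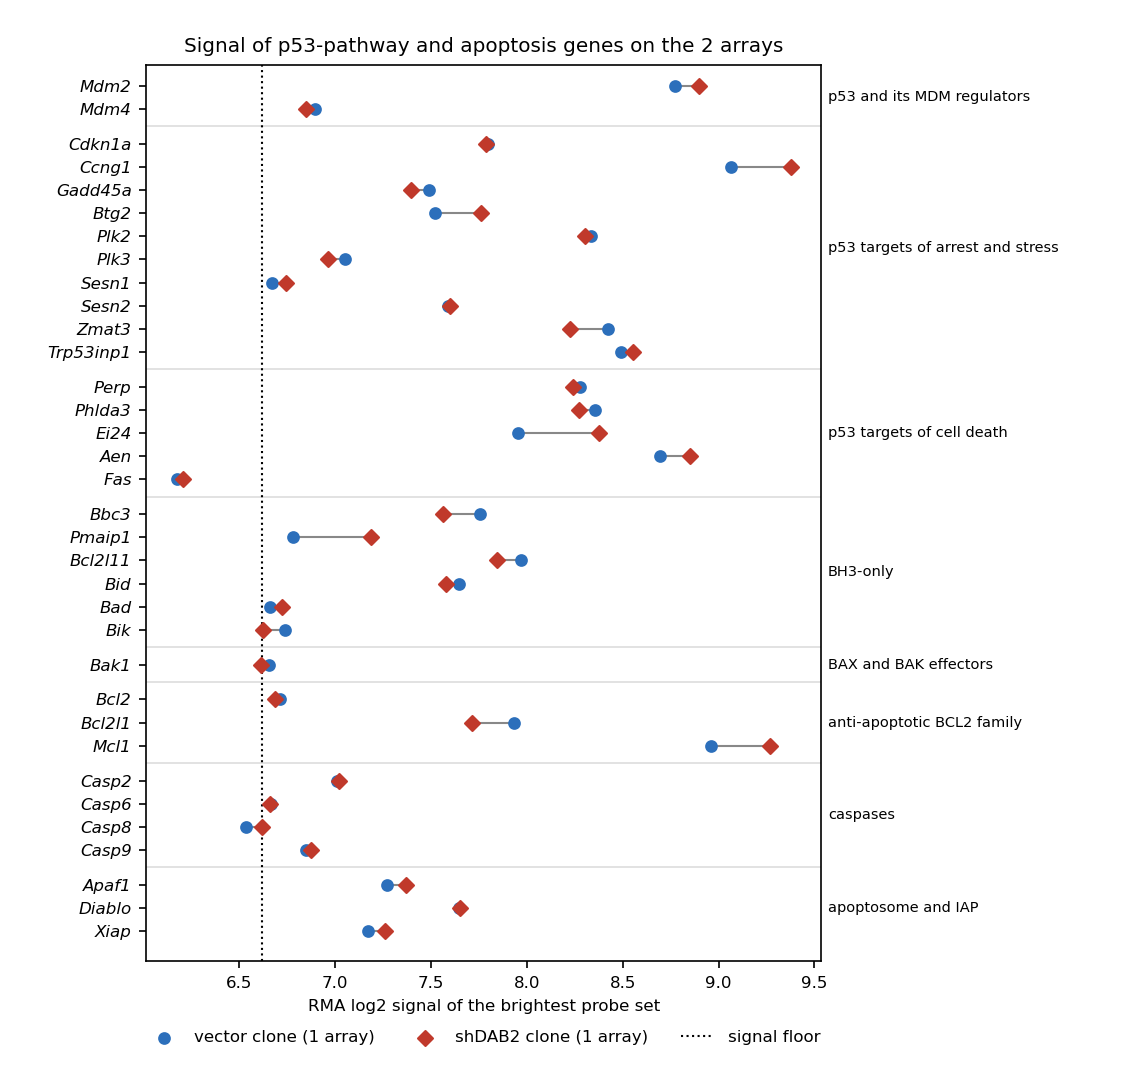
RMA log2 signal (x axis) of the brightest probe set of 34 genes (y axis, grouped by role) on the vector array (blue circles) and the shDAB2 array (red diamonds), with a line joining the values of 1 gene and a dotted line at the floor of 6.62. The longest lines belong to Ei24 and Pmaip1, both with the red diamond to the right, and Fas and Casp8 are the genes whose values both lie below the floor.

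The regulators of p53 differed little. Mdm2 read 8.90 in the shDAB2 clone against 8.77 in the vector clone, a difference of 0.13. Its other probe set gave 0.14, so the probe sets of this direct p53 target matched in sign and size. Mdm4, a relative of MDM2 that holds p53 inactive without degrading it, read 6.85 and 6.89 (-0.05), and its dimmer probe set, below the floor, gave -0.10.

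The targets that act in cell cycle arrest and stress were split, with 5 of 10 higher, 5 lower and a median of -0.003. Ccng1, cyclin G1, a feedback regulator that recruits a phosphatase to MDM2, read 9.38 in the shDAB2 clone against 9.06 in the vector clone. The difference was 0.31, or 1.24-fold, and on its dimmer probe sets 0.20 and 0.08, so the sign was shared by all 3 but the limit was passed on 1. Of the 500 genes nearest in signal, 86.8% had a lower signed difference than Ccng1, and their differences had an SD of 0.33. Such shares keep the sign, so they include genes lower in the shDAB2 clone and are not ranks by size. Btg2, an antiproliferative gene, read 7.76 and 7.52, which is 0.24 higher in the shDAB2 clone and 0.11 on the second probe set.

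Cdkn1a, which encodes the cyclin-dependent kinase inhibitor p21 and is the classic p53 arrest target, read 7.78 in the shDAB2 clone against 7.80 in the vector clone. Its differences of -0.01 and -0.02 on both probe sets were among the smallest of the list. The upstream of its 2 promoter windows holds the only pair of exact decamer matches of the list. Gadd45a, a growth arrest and DNA damage gene, read 7.40 and 7.49, a difference of -0.09. Zmat3, an RNA-binding zinc finger gene, had the lowest difference in the group, with 8.22 in the shDAB2 clone against 8.42 in the vector clone (-0.20, a single probe set). The polo-like kinase genes were close to level: Plk2 read 8.30 and 8.33 (-0.03). Plk3 read 6.97 and 7.05 (-0.09).

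The sestrins, which restrain mTORC1 and oxidative stress, depended on the probe set. Sesn2 read 7.60 in the shDAB2 clone against 7.59 in the vector clone on its brightest probe set, a difference of 0.01. On the other probe set it read 7.25 and 7.61, a difference of -0.36, or 1.28-fold lower. The direction of Sesn2 is therefore not settled by these arrays. Sesn1 read 6.74 and 6.67 (0.07), with -0.02 and 0.06 on probe sets below the floor. Trp53inp1, a nuclear protein gene that promotes p53 phosphorylation, also split: 8.56 and 8.49 (0.07) on the brightest probe set and -0.15 on the other. Sesn2 and the death gene Pmaip1 are known to respond to the stress factor ATF4 as well as to p53. Atf4, named after its value was seen, read 8.61 in the shDAB2 clone against 9.99 in the vector clone (-1.37, with -0.59 and -0.15 on its dimmer probe sets), and its part in the values of Sesn2 and Pmaip1 was not tested.

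Among the targets tied to cell death, Ei24 had the largest difference of the whole list. Ei24, an endoplasmic reticulum protein gene also known as PIG8, read 8.38 in the shDAB2 clone against 7.96 in the vector clone, a difference of 0.42 or 1.34-fold. It has a single probe set, so nothing on these arrays repeats the value. Of the 500 genes nearest in signal 95.4% had a lower signed difference, with an SD of 0.28. Aen, an apoptosis-enhancing nuclease, read 8.85 and 8.69, a difference of 0.16, with 0.10 and 0.06 on its dimmer probe sets. Perp, a desmosomal membrane protein gene, read 8.24 and 8.28 (-0.04), and Phlda3, an inhibitor of AKT, read 8.27 and 8.36 (-0.09). Fas, the death receptor, was below the floor at 6.21 and 6.17, and its difference of 0.03 says little, since RMA shrinks differences of dim probe sets.

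The BH3-only genes did not move as a group: 2 of 6 were higher, 4 lower, and the median was -0.09. Pmaip1, which encodes NOXA, stood apart from the rest. It read 7.19 in the shDAB2 clone against 6.78 in the vector clone, a difference of 0.41 or 1.33-fold on its single probe set. At that lower signal, where differences are smaller, 99.6% of the 500 nearest genes had a lower signed difference and the SD was 0.16. Bbc3, which encodes PUMA, differed the other way, with 7.56 in the shDAB2 clone against 7.76 in the vector clone (-0.19). These are the BH3-only genes best known as p53 targets, and they had opposite signs.

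Bcl2l11, which encodes BIM, read 7.85 in the shDAB2 clone against 7.97 in the vector clone, a difference of -0.12. It was measured evenly, since its 5 probe sets, all above the floor, ran from -0.12 to -0.04. Bid, which links death receptors to mitochondria when cleaved by caspase-8, read 7.58 and 7.65 (-0.07, and -0.03 on the second probe set). Bad, a sensitiser controlled by phosphorylation, read 6.73 and 6.66 (0.06). Bik, of the endoplasmic reticulum, read 6.62 and 6.74 (-0.11), but 0.07 on its second probe set and -0.07 on a probe set below the floor. Both Bad and Bik lay close to the floor.

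Of the pore-forming effectors in the list only Bak1 was measured, at 6.61 in the shDAB2 clone against 6.65 in the vector clone (-0.04), with 0.04 on a probe set below the floor. The anti-apoptotic genes went apart. Mcl1, whose short-lived product is the preferred partner of NOXA, read 9.27 and 8.96 on its brightest probe set, a difference of 0.31 or 1.24-fold higher in the shDAB2 clone. The 6 probe sets of Mcl1 ran from 0.0003 to 0.31 with a mean of 0.12: none was lower in the shDAB2 clone, but 1 of 6 passed 1.2-fold, and that one has an ID ending in _x_at, which marks probes that may also match other transcripts. Bcl2l1, which encodes BCL-XL, had the lowest difference of the whole list, at 7.72 in the shDAB2 clone against 7.94 in the vector clone (-0.22, or 1.17-fold lower). Its other probe sets above the floor gave -0.01 and -0.14, and a dim one 0.05. Bcl2 was close to the floor at 6.69 and 6.71 (-0.03).

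The caspase genes were level. Casp2, whose product is activated on the PIDDosome, read 7.02 and 7.01 in the shDAB2 and vector clones (0.01). Casp9, the apoptosome initiator, read 6.88 and 6.85 (0.03), and the executioner Casp6 read 6.66 on both arrays (-0.004). Casp8, the death receptor initiator, was just under the floor, at 6.62 and 6.54 (0.08). Thus Fas and Casp8, the members of the list that serve death receptor signalling most directly, were the genes below the floor on both arrays, where a difference could be hidden by low signal.

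The genes Apaf1, Xiap and Diablo were likewise close. Apaf1 read 7.37 in the shDAB2 clone against 7.27 in the vector clone, 0.10 higher and 0.13 on the second probe set. Xiap, which encodes a direct caspase inhibitor, read 7.26 and 7.17 (0.09), and 0.01 on the second probe set, while 4 probe sets below the floor ran from -0.09 to 0.02. Diablo, whose product relieves that inhibition, read 7.65 and 7.65 (0.003), with 0.06 on a probe set below the floor. On the brightest probe sets all 3 differences were positive, and each was smaller than the SD of 0.11 between probe sets of 1 gene.

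**Figure D2:**
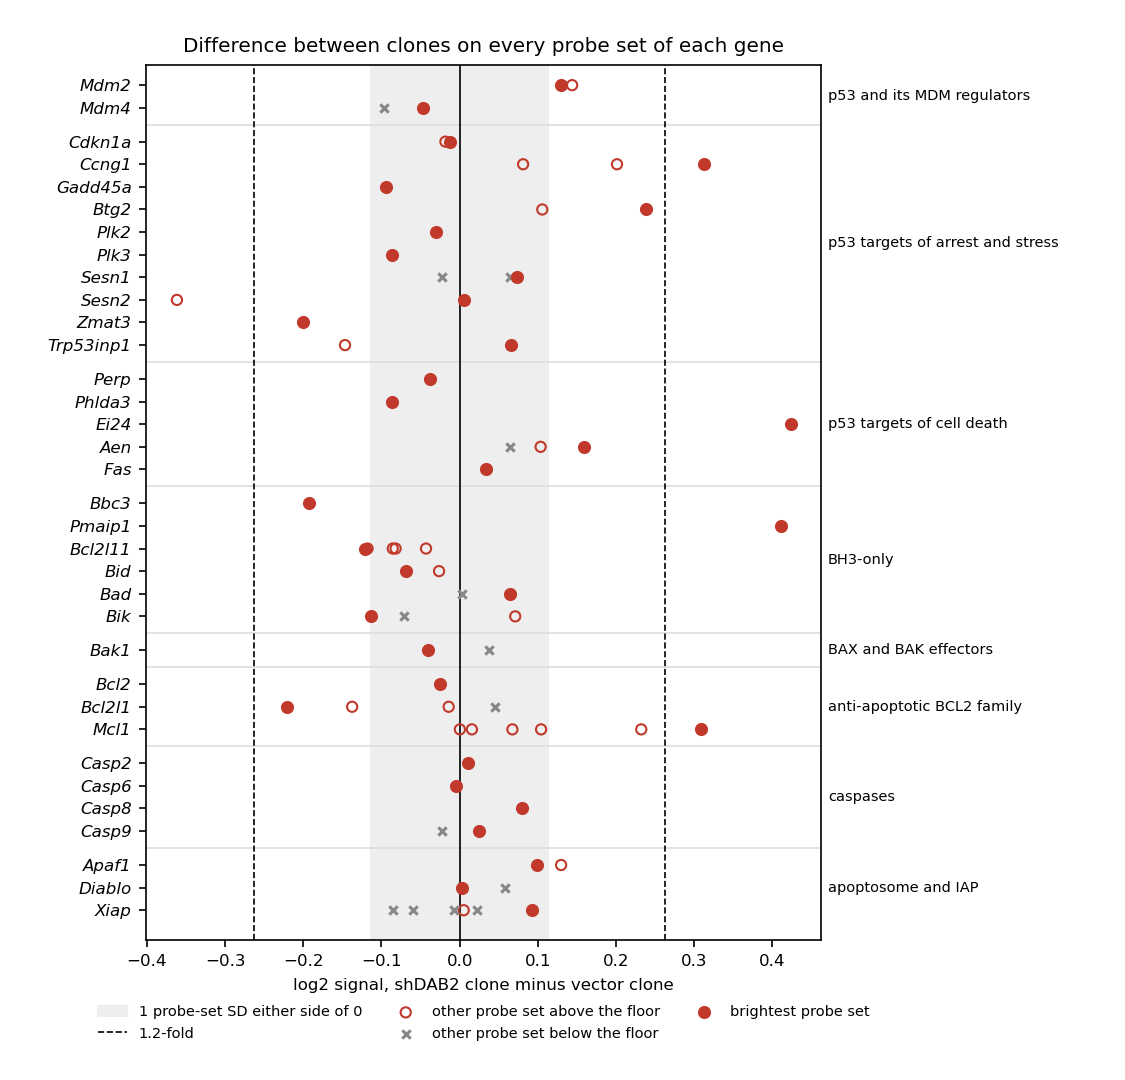
Log2 signal of the shDAB2 clone minus the vector clone (x axis) on every single-gene probe set of 34 genes (y axis): filled circles are brightest probe sets, open circles other probe sets above the floor, crosses probe sets below it. The grey band is 1 probe-set SD (0.11) either side of 0 and dashed lines mark 1.2-fold; Ei24 and Pmaip1 lie farthest right on single probe sets, the 6 Mcl1 circles spread from 0.0003 to 0.31, and Sesn2 has a circle near 0 and another at -0.36.

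Probe sets of 1 gene are the only repeat measurement. They read the same RNA on the same arrays, so their SD does not measure the spread between clones, cultures or arrays. Over 2502 genes with several probe sets above the floor, the SD between differences of 1 gene's probe sets was 0.11, and over the 14 listed genes with several it was 0.10. In 11 of those 14 genes the brightest and the next probe set had the same sign, and Sesn2, Trp53inp1 and Bik were the exceptions. Of the 32 genes, 20 differed by less than that SD of 0.11, as did 51.1% of all genes. Of the 4 genes past 1.2-fold, Ei24 and Pmaip1 have 1 probe set each, while Ccng1 and Mcl1 fell under the limit, at 0.20 and 0.12, when all their probe sets were averaged.

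**Figure D3:**
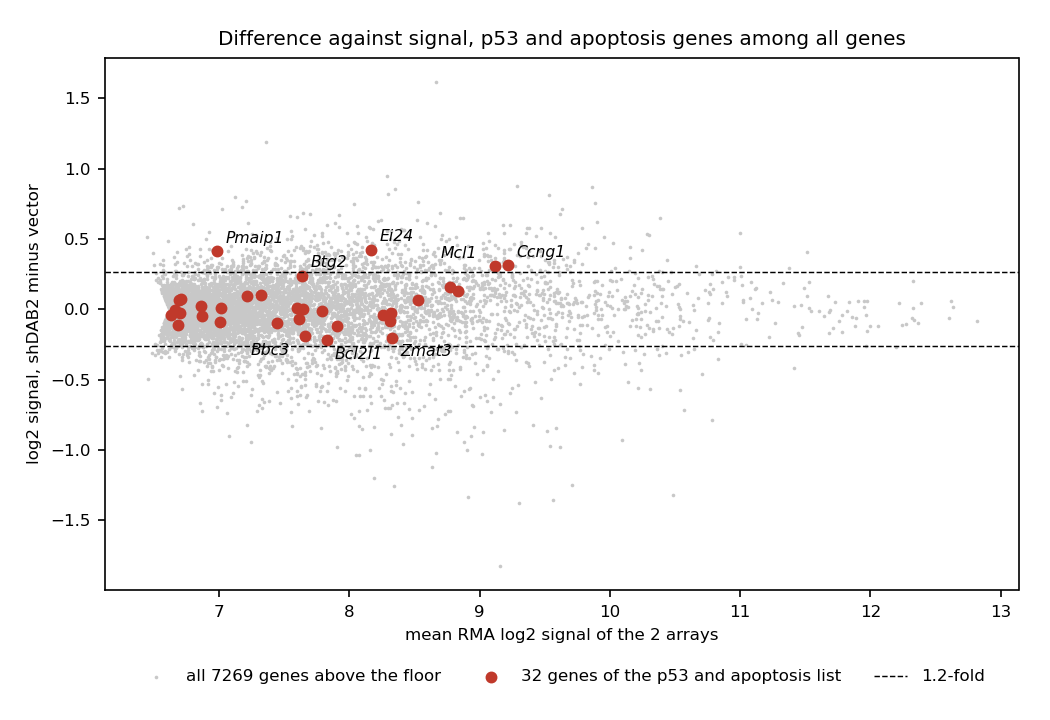
Log2 signal of the shDAB2 clone minus the vector clone (y axis) against the mean log2 signal of both arrays (x axis) for 7269 genes above the floor (grey) and 32 genes of the p53 and apoptosis list (red); dashed lines mark 1.2-fold. The red points lie between -0.22 and 0.42, and genes that differ by about 0.2 or more are named.

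The genes with a p53 decamer in a promoter window were set beside the rest, a split made after the values were seen. Of the 9, Bax and Trp53 were not analysed here, and the other 7 were all above the floor. Ei24, Ccng1, Aen, Mdm2 and Sesn1 were higher in the shDAB2 clone, and Cdkn1a and Gadd45a lower by at most 0.09. The median of the 7 was 0.13. The 20 listed genes above the floor that had windows without the decamer had 9 higher, 11 lower and a median of -0.01. Over all genes, the 460 above the floor that held the decamer had a median of 0.02 and 52.4% were higher, against 0.003 and 50.4% of the 5469 without it. With 7 genes on 1 array per clone this is a description of these genes, and no test was made.

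Other sequence features of the listed promoters were also counted, and not all of them differed from the windows of all genes. Their windows held a median of 22 CpG dinucleotides against 7 over all windows, and 63.7% G and C against 52.7%. GGGCGG, the core of the GC box bound by SP1-type factors, was in 30 of 43 windows (69.8%, against 35.7% of all). CCAAT was in 17 (39.5%, against 37.4%) and TATAAA in 2 (4.7%, against 13.6%). TGATGNAA, a core of amino acid response elements bound by ATF4, was in 0 of 43 windows and in 4.0% of all. Pmaip1 had no window, so this count does not cover it. All motifs were searched on both strands. The windows of all genes include noncoding genes, and the part of base composition in the motif shares was not tested.

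Other genes of the pathway were described from 4 further lists of 97 genes, 69 of them above the floor. Among these 6 were at least 1.2-fold higher and 5 lower, with a median of 0.02, beside 7.97% higher and 8.80% lower of all genes. For other p53 targets the counts were 1 higher and 4 lower of 23, with a median of 0.06, where 8.80% of all genes were as much lower. Pltp, a phospholipid transfer protein gene, was the lowest, at 7.93 in the shDAB2 clone against 8.89 in the vector clone (-0.96, and -0.85 on the second probe set). Sfn, the 14-3-3 sigma gene of epithelial cells, differed by -0.40, at 8.86 and 9.26. Ckap2, a spindle protein gene, was 0.41 higher, at 8.86 and 8.45. The remaining lower ones, Cyfip2 (-0.33) and Psrc1 (-0.30), were named after their values were seen. All 4 differed by more than Bcl2l1, the lowest gene of the p53 and apoptosis list at -0.22.

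Kinases and modifiers of p53 had 3 of 16 genes at least 1.2-fold higher and none lower, with a median of 0.05, where 7.97% of all genes were as much higher. With so few genes the count is a description of these 16. Daxx, a histone chaperone that binds p53 and MDM2, read 8.58 in the shDAB2 clone against 8.10 in the vector clone (0.48). Hexim1, an inhibitor of P-TEFb, was 0.31 higher, with -0.02 on a probe set below the floor. Rchy1, a ubiquitin ligase for p53 known as PIRH2, was 0.28 higher.

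In the rest of the BCL2 family and its partners 1 of 10 genes was at least 1.2-fold higher and none lower, beside 7.97% and 8.80% of all genes. Bnip3, a mitochondrial mitophagy receptor gene induced by hypoxia, read 8.26 in the shDAB2 clone against 7.59 in the vector clone, 0.67 higher or 1.59-fold. The co-chaperone genes Bag3 and Bag1 came next, with differences of -0.14 and -0.11.

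Among other caspases and death machinery genes 1 of 20 was at least 1.2-fold higher and 1 lower, beside 7.97% and 8.80% of all genes, with a median of -0.01. Aifm1, a mitochondrial oxidoreductase that also acts in caspase-independent death, differed by -0.46, at 7.41 in the shDAB2 clone against 7.86 in the vector clone. Cycs, cytochrome c, was 0.28 higher, and its 3 probe sets lay close together at 0.28, 0.32 and 0.27. Birc5, survivin, a mitotic protein gene, was 0.20 higher. These values show opposite signs for Cycs and Aifm1, both products of the mitochondrial intermembrane space.

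**Figure D4:**
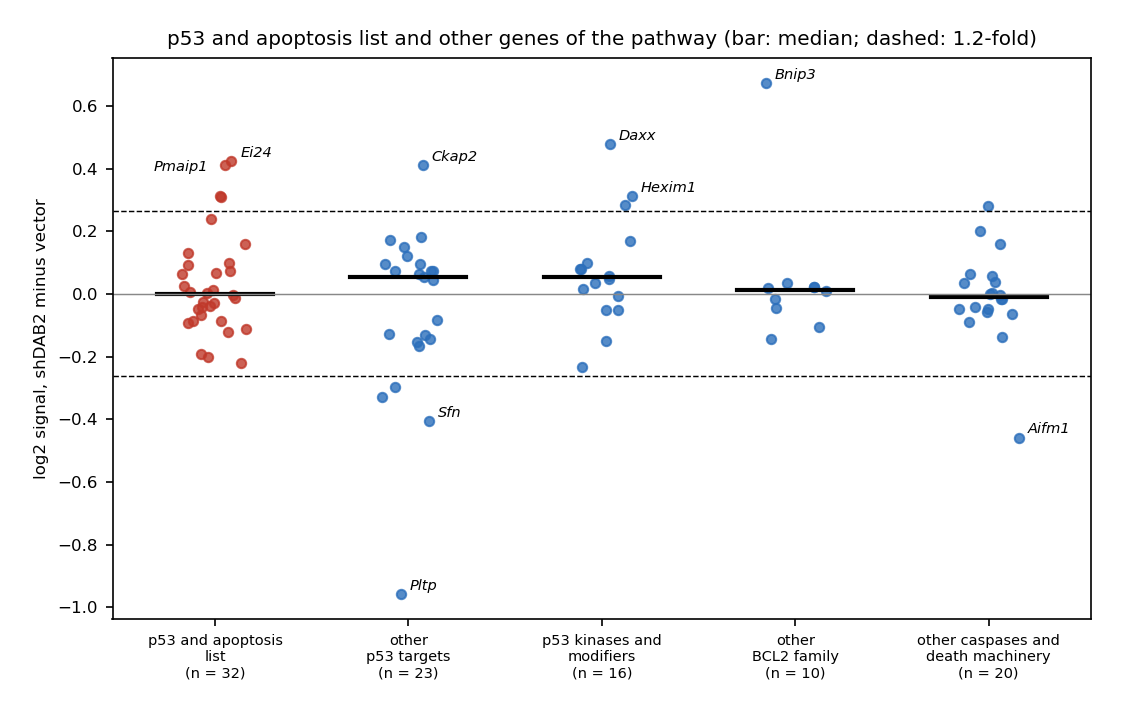
Log2 signal of the shDAB2 clone minus the vector clone (y axis) for genes above the floor in the p53 and apoptosis list (red, 32 genes) and in 4 other lists (blue; 23, 16, 10 and 20 genes), with a bar at each median and dashed lines at 1.2-fold; horizontal position within a list has no meaning. Medians lie between -0.01 and 0.06, and Pltp (-0.96) and Bnip3 (0.67) are the extremes.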

How the data were processed

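Each of the 2 samples is 1 array of 1 clone. The deposited table holds signals, read as log2, that the authors made with RMA, per the submitters' processing notes; its version, its probe set definitions and whether further arrays were included were not given in the sources used here. As the notes name no log base, log2 was assumed because RMA normally writes it and the range of the values fits. Of 22626 probe sets, the 20380 annotated to 1 gene were used, and the probe set with the highest mean represented its gene. The sorted signals of both arrays lay within 0.07 of each other. Differences are shDAB2 minus vector, described by size (1.2-fold, with 1.5-fold and 1.1-fold as alternatives). The number of arrays limits the precision. Groups came from the sample titles. The gene list and the other lists were chosen with earlier results of these data known. Named genes are all listed genes, up to 3 with the largest absolute difference from each other list, and Dab2; the marker genes, Atf4, Cyfip2 and Psrc1 were named after their values were seen. Alternatives covered the choice of probe set, the floor, median centring and cyclic loess (limma 3.58.1, R 4.3.3). Other steps used Python 3.11.15, pandas 2.3.3 and numpy 2.4.6, tested on simulated data.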

Additional observations from a re-analysis of the deposited data

How the results depend on the processing

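With all probe sets of a gene averaged, 2 of 27 listed genes were at least 1.2-fold higher (Ei24 and Pmaip1). Of all genes 6.15% were as much higher in that setting. Ccng1 and Mcl1 dropped out because their dimmer probe sets differed less. A 1.5-fold limit left 0 genes and a 1.1-fold limit gave 6 higher and 3 lower, by construction. Without probe sets ending in _s_at, _x_at or _a_at 3 of 28 listed genes were higher, beside 7.77% of all genes. With cyclic loess, centring, no floor or a floor on both arrays the same 4 as in the main setting were higher. The shares of all genes were then 7.31%, 8.30%, 4.69% and 8.24%, in that order. The count of genes 1.2-fold lower was 0 under every alternative except the 1.1-fold limit. Among all genes the share 1.2-fold lower ran from 5.21% without a floor to 9.25% with cyclic loess. The median of the list ran from -0.0149 to 0.0057. The BH3-only median turned from -0.09 to 0.01 without those suffixed probe sets. Of 182 values of single genes under the alternatives 176 stayed within 0.11, the probe-set SD, of their main value. The other 6 were Ccng1, Sesn2, Bik, Bcl2l1, and Mcl1 under 2 alternatives, all under a changed choice of probe set. Of the 182, 5 changed sign. The floor settings cannot alter a gene's difference, and centring shifts all genes by the same small amount. Averaging cannot alter a gene with 1 probe set. The 176 therefore include values that could not move by 0.11, and their number does not measure robustness. No value was left for Bak1, Bik, Mdm4, Sesn1 and Xiap with averaged probe sets, for Casp9, Mdm2, Mdm4 and Sesn1 without suffixed probe sets (so no median of the MDM genes), and for Bak1 with a floor on both arrays. No paired analysis was possible because each group holds 1 array. Low signal limits what Fas, Casp8, Bak1, Bad, Bik, Bcl2, Casp6 and the targeted gene Dab2 can show.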
